A study of Mus musculus with 3 samples.

Results

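The genes described here act in the formation of the trachea and lung, or are products of lung epithelium. The former are the transcription factor Nkx2-1 and the mesenchymal ligands Wnt2, Wnt2b and Fgf10, the latter the surfactant protein genes Sftpc and Sftpb. These 6 are among the 16998 genes with a named probe, and were chosen by symbol, each having 1 probe. RNA from the primordium of the esophagus, of the stomach and of the intestine of embryos at E11.5 had been labelled with Cy3 and hybridised to 1-colour Agilent arrays of mouse genes. The embryos were of the ICR stock, which is outbred. The labels give no genetic change or treatment for any group, and state neither the number of embryos nor any pooling. With 1 array for an organ, no difference below has a replicate check, and no test between organs could be run. In dissected tissue, fewer cells of a type and less RNA per cell cannot be told apart.

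The respiratory system buds from the ventral wall of the anterior foregut. Wnt2 and Wnt2b, secreted by the surrounding mesoderm, act through beta-catenin in the endoderm and are together required in mouse for the field of cells that turn on Nkx2-1. That field separates from the dorsal tube, which becomes the esophagus, and Fgf10 from the distal mesenchyme then drives outgrowth of the lung buds through the receptor Fgfr2. Surfactant protein genes are products of the distal lung epithelium, and Nkx2-1 is a known activator of their promoters. Nkx2-1 is also used in the thyroid and the ventral forebrain, and Fgf10 in the mesenchyme of several gut organs.

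A level here is the log2 signal after subtraction of the log2 75th percentile of the same array, control spots left out. Esophagus had a percentile of 393, stomach 334 and intestine 1023, so that a given level stands for a brighter spot on the intestine array. A probe counted as measured where the scanner software called most of its spots well above background, and 69.3% of spots were so on the esophagus array, 67.9% on the stomach array and 74.0% on the intestine array. Measured probes had levels as low as −5.81 in esophagus, −5.84 in stomach and −6.97 in intestine. Where only 1 of a pair of arrays measured a gene, its difference is given as at least N-fold, against the higher of that lowest level and the dim probe's own. The lower limit of the intestine scale makes bounds against intestine larger. Differences from probes of the same gene had a median SD of 0.25 log2 units for esophagus over stomach, 0.46 for esophagus over intestine and 0.31 for stomach over intestine. This SD shows how far probes disagree on the same arrays. It holds no variation between embryos or repeat arrays, so it is not an error of an organ difference. Of 3 marker genes for each organ label, all were higher on the array of their own organ than on the others. In esophagus, stomach and intestine Trp63 stood at 0.25, −2.21 and −7.97, Barx1 at 0.87, 4.43 and −4.39, and Cdx2 at −8.07, −4.37 and 1.85, where the lowest value of Trp63 and of Cdx2 was not well above background.

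The 6 genes did not share a pattern. Nkx2-1 and Sftpc were well above background in esophagus and in neither of the other organs. Wnt2 was measured in all 3 organs and was highest in esophagus. Wnt2b was measured in all 3 and differed less, Fgf10 was highest in stomach by level, and Sftpb was not well above background in any organ. At least 4-fold higher in esophagus than in stomach were 3 of the 5 genes that could be compared, against 1.58% of 13737 genes tested on the whole array. The same 3 genes, Nkx2-1, Sftpc and Wnt2, were at least 4-fold higher in esophagus than in intestine, where 3.85% of 13905 genes were. Nkx2-1 and Sftpc entered both comparisons through esophagus alone, so they could only count as higher. Of the 3 members measured on both arrays, 1, Wnt2, was higher by 4-fold or more in each comparison. Among all genes measured on both arrays, 155 of 12923 were so over stomach and 420 of 13100 over intestine. Between stomach and intestine, 1 of 3 comparable genes, Wnt2, was higher in stomach by 4-fold or more, against 1.29% of 13820 genes. No comparable member was lower by 4-fold or more, where 0.684% of genes were for esophagus over stomach, 1.82% for esophagus over intestine and 1.43% for stomach over intestine. By the filter, Nkx2-1 and Sftpc could not have counted as lower in either comparison of esophagus. The comparisons share arrays, so the counts are not independent of each other.

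**Figure D1:**
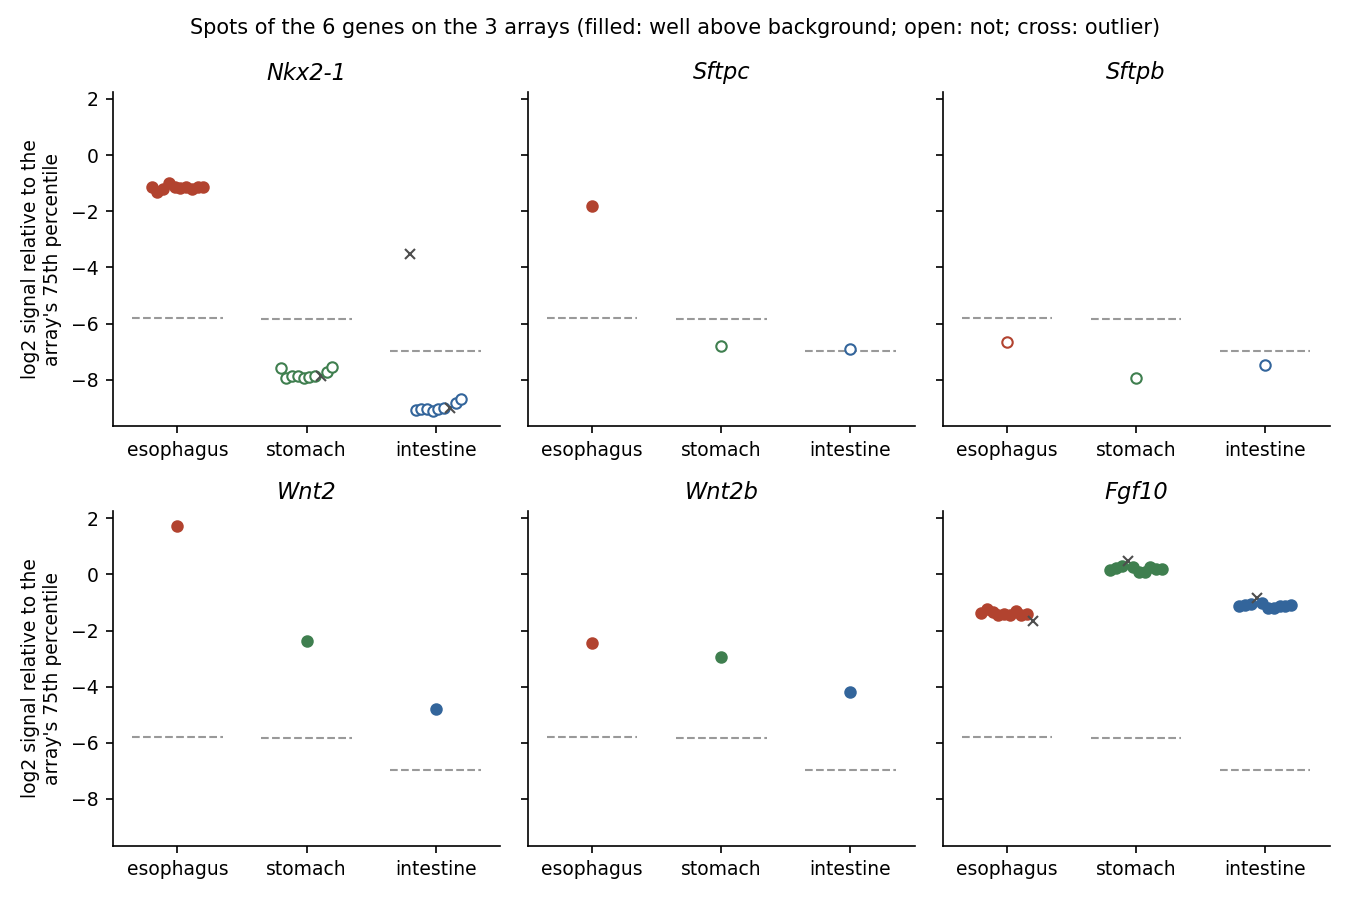
Level of every spot of the 6 genes (y axis, log2 signal relative to the array's 75th percentile) on the esophagus, stomach and intestine arrays. Filled circles are spots well above background, open circles are spots that are not, crosses are outlier spots left out, and dashed lines mark the lowest level of a measured probe on each array. The esophagus spots of Nkx2-1 and Sftpc are filled and lie above that line, their circles in the other organs are open, and Fgf10 is highest in stomach.

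Nkx2-1, the earliest marker of the respiratory field, had a probe printed 10 times on each array. In esophagus all 10 spots were well above background, with processed signals from 158 to 195 around a median of 177. In stomach the 9 spots that were not outliers read from 1.35 to 1.77, and in intestine the 8 such spots read from 1.84 to 2.46, and none was well above background. The spots of esophagus did not overlap with those of either other organ, and their level was −1.16 ± 0.076 (SD over 10 spots). The level was −7.80 ± 0.149 in stomach (SD over 9 spots) and −8.99 ± 0.142 in intestine (SD over 8 spots). A small spread is usual, with a median SD of 0.103 over probes printed 10 times on the esophagus array. How many of those probes also did not overlap between organs was not counted. Before any background correction the median pixel intensity of the Nkx2-1 spots was 160 to 219 in esophagus over a local background near 19.5. In stomach it was 23.0 to 26.5 over a local background near 20.0. Nkx2-1 was at least 25.7-fold higher in esophagus than in stomach and at least 56.2-fold higher in esophagus than in intestine. These bounds are set by the limit of detection, and after normexp background correction they were 1.74 log2 units over stomach, under 4-fold, and 3.11 over intestine. Spots of 1 probe share an array and an RNA sample, so their spread covers the measurement and not the tissue. In intestine 1 further spot of this probe read 88.1 and was marked as an outlier by the scanner software, and in the authors' deposited table the difference for esophagus over intestine was 2.39 log2 units.

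Sftpc, which encodes a hydrophobic surfactant protein and is the classic marker of distal lung epithelium, had a single spot. The spot read 113 in esophagus, against 3.03 in stomach and 8.49 in intestine, and it was well above background in esophagus alone. It was at least 16.4-fold higher in esophagus than in stomach and at least 34.7-fold higher in esophagus than in intestine. After normexp correction the limits were 1.08 log2 units over stomach, under 4-fold, and 2.42 over intestine. Probes printed 10 times at a like level on the esophagus array had a median SD of 0.082 log2 units between spots, which is the best available guide to the precision of that spot.

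Sftpb, a second hydrophobic surfactant protein gene, read 3.86 in esophagus, against 1.37 in stomach and 5.80 in intestine. None of them was well above background, so it was not detectable on these arrays and has no fold change.

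The promoter of Sftpb is shown because it is a textbook target of NKX2-1. RefSeq entries of build GRCm38.p6 gave upstream stretches of 250 bases for 5 of the 6 genes. The stretch before the Sftpb start, chr6:72304360-72304609 on the plus strand, is printed with matches to the NKX2-1 core CTCAAG in capitals.
Sftpb: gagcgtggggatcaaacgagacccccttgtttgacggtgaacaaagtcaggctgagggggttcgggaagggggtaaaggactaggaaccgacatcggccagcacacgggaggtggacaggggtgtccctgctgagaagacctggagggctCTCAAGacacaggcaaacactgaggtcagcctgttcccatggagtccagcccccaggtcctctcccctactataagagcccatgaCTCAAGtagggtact

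It held 2 matches to CTCAAG on the plus strand, beginning 100 and 15 bases before the start, and 1 match to the forkhead core TGTTTNC on the minus strand, beginning 88 bases before the start. Searched on both strands, CTCAAG occurred in 13.3% of 32851 upstream stretches of the same length and TGTTTNC in 17.8%. The stretches of Nkx2-1, Wnt2, Wnt2b and Fgf10 held no match to CTCAAG. A match is a string of letters and does not show binding.

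Nkx2-1 and Sftpc gave limits only, which are not ranked here against differences measured on both arrays. Other products of airway and alveolar epithelium were compared by the same rule. Of 9 such genes with a probe, 7 could be compared between esophagus and stomach and 0 were at least 4-fold apart, with a median difference of −0.37 log2 units against −0.15 over all genes tested. Between esophagus and intestine 2 of 7 were higher by 4-fold or more, both as limits, where 3.85% of all genes were. For 2-fold, 1 was higher and 1 lower over stomach, and 3 were higher and 2 lower over intestine. The lower ones were Scgb1a1, at −1.475 over stomach, and Lamp3 and Foxj1, at −1.235 and −1.674 over intestine. After normexp correction these were −0.60, −1.05 and 0.029. Sftpa1, a hydrophilic surfactant protein gene, was well above background in esophagus alone, at a level of −4.42, which is at least 1.42 log2 units higher than in stomach and at least 2.55 higher than in intestine. Napsa, a protease that processes surfactant protein B, was measured in esophagus (−4.74) and in stomach (−4.12) but not in intestine, a difference of at least 2.23 log2 units for esophagus over intestine. After normexp correction the limit of Sftpa1 was 0.18 over stomach and 1.48 over intestine, and that of Napsa over intestine was 1.42, all under 4-fold. Sftpd was not well above background in any organ. Abca3, the lipid transporter of surfactant granules, was within 2-fold between each pair of organs, at −0.58 in esophagus, −0.34 in stomach and −0.84 in intestine, and its direction against intestine flipped with spike-in scaling.

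Wnt2, the ligand of ventral foregut and lung mesenchyme, showed the largest difference that was measured on both arrays among the 6 genes. The processed signal of Wnt2 was 1284 in esophagus, against 64.3 in stomach and 37.3 in intestine, all from single spots well above background. The corresponding levels were 1.71, −2.38 and −4.78. By level, and so relative to the 75th percentile of each array, Wnt2 was 17.0-fold higher in esophagus than in stomach, the 26th largest of 12923 differences in that direction that were measured on both arrays. By level it was 89.6-fold higher in esophagus than in intestine, the 8th largest of 13100. These differences, 4.09 and 6.49 log2 units, were 3.13 and 5.05 after normexp background correction, and 4.32 and 5.11 between the unscaled signals. Stomach stood 5.28-fold above intestine, the 70th largest of 13273, but this step was 1.92 log2 units after normexp correction and 1.40 with scaling to the spike-in controls, both under 4-fold. With spike-in scaling the median of all genes was −1.03 for esophagus over intestine and −0.95 for stomach over intestine, against −0.13 and 0.02 by the 75th percentile, so differences from intestine read lower on that scale for all genes.

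Wnt2b, its paralog with an overlapping role in mouse, read 71.4 in esophagus, 43.2 in stomach and 55.8 in intestine, all well above background and within 2-fold of each other before scaling. Its levels were −2.46, −2.95 and −4.20. Esophagus stood 0.49 log2 units above stomach, more than the median SD of 0.25 between probes of 1 gene, but the difference was 0.089 after normexp correction. Esophagus was 3.33-fold above intestine and stomach was 2.37-fold above intestine on the 75th percentile scale. With scaling to the spike-in controls those differences were 0.81 and 0.25 log2 units, and before any scaling the Wnt2b signal was higher in intestine than in stomach, so the size of the step from stomach to intestine depends on how the intestine array is scaled.

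The upstream stretches of this pair of paralogs are printed because Wnt2 differed strongly between the organs and Wnt2b much less. In Wnt2, chr6:18030446-18030695 on the minus strand, capitals mark matches to the GATA core TTATC, since GATA6 is a known activator of Wnt2 in the mouse. The stretch of Wnt2b is chr3:104961710-104961959 on the minus strand.
Wnt2: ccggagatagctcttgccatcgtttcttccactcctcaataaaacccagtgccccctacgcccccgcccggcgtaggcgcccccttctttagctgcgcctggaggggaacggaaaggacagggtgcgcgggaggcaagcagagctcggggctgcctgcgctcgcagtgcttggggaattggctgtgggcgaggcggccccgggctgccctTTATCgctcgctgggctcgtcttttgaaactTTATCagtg
Wnt2b: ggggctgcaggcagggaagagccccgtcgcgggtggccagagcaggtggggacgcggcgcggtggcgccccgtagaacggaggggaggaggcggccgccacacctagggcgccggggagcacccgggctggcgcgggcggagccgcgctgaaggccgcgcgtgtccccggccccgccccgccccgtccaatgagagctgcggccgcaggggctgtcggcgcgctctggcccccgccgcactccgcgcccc

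Wnt2 held 2 matches to TTATC, beginning 40 and 9 bases before the start, and Wnt2b held none, while 22.6% of all upstream stretches held this string on either strand. The base composition differed too, with 63.6% G or C in Wnt2 and 80.8% in Wnt2b. Neither held a match to the TCF/LEF core ATCAAAG or the T-box core AGGTGTNA, which occurred in 3.21% and 2.68% of all stretches. Gata6 was measured in every organ, at 1.45 in esophagus, 0.79 in stomach and 0.53 in intestine, and its differences from intestine changed sign with spike-in scaling.

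Other genes of the canonical Wnt pathway were taken from a list of 24, all of which were measured in every organ. For esophagus over stomach 3 of them were higher by 4-fold or more and 0 lower, and their median was 0.29 log2 units against −0.15 over all genes. For esophagus over intestine 8 were higher by 4-fold or more and 0 lower, and their median was 0.47 against −0.13. For stomach over intestine the numbers were 4 and 0, and the median was 0.23 against 0.02. Over all genes, 1.58%, 3.85% and 1.29% were higher by 4-fold or more in these comparisons. After normexp correction 0 of the 24 were higher by 4-fold or more for esophagus over stomach, 5 for esophagus over intestine and 2 for stomach over intestine, and with spike-in scaling these numbers were 3, 4 and 1. Lower by 4-fold or more with spike-in scaling were 0, 1 and 2 of the 24. Over all genes, 1029 of 14433 were so for esophagus over intestine and 684 of 14372 for stomach over intestine. With median centring 1 of the 24 was lower for esophagus over intestine, where 455 of 14216 genes were. Rspo2, a secreted enhancer of Wnt signalling made by lung bud mesenchyme, stood at −0.05 in esophagus, −2.47 in stomach and −4.76 in intestine, in the same order of organs as Wnt2. Wnt7b, the ligand of lung epithelium, stood at −0.49 in esophagus, −2.87 in stomach and −2.70 in intestine. After normexp correction the differences for esophagus over stomach were 1.54 for Rspo2 and 1.54 for Wnt7b, both under 4-fold. Sfrp2, a secreted Wnt inhibitor, was 2.05 log2 units higher in esophagus than in stomach, which fell under 4-fold at 1.98 after normexp correction and 1.85 with median centring, and 3.10 higher in esophagus than in intestine. Wnt11, a ligand of foregut mesenchyme, differed by −0.33 for esophagus over stomach and by 2.42 for stomach over intestine, the second being 1.43 with spike-in scaling.

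The readouts of Wnt signalling in the list did not all move with the ligands. Axin2, the most widely used target of beta-catenin signalling, differed by 0.33 log2 units for esophagus over stomach and by 0.19 for esophagus over intestine, both under 2-fold, and the sign of its difference from intestine flipped to −0.31 with median centring and to −0.74 with spike-in scaling. Lef1, a partner of beta-catenin that is also a target, was 1.28 log2 units higher in esophagus than in stomach and 3.11 higher in esophagus than in intestine. Sp5 and Lgr5, further targets, were 3.12 and 2.85 log2 units higher in esophagus than in intestine, the value of Lgr5 being 1.92 with spike-in scaling, and stood at −0.14 and 0.68 for esophagus over stomach.

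**Figure D2:**
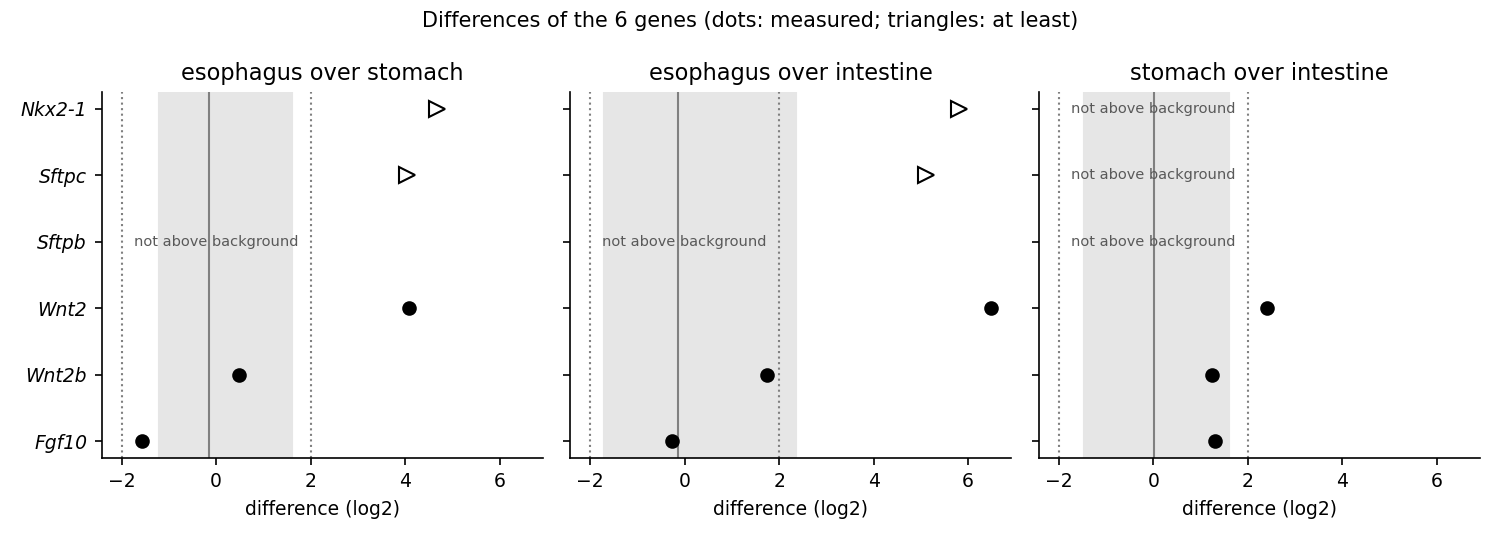
Difference of each of the 6 genes (x axis, log2) for esophagus over stomach, esophagus over intestine and stomach over intestine. Dots are differences measured on both arrays, triangles are lower limits, the grey band holds the central 95% of all genes tested with their median as a line, and dotted lines mark 4-fold. Wnt2 at 4.09, 6.49 and 2.40 lies outside the band in every panel, and Wnt2b lies inside it.

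Fgf10, the ligand of lung bud outgrowth, ran in the opposite direction to Wnt2 between the foregut organs. Its probe was printed 10 times, with 9 spots on each array not marked as outliers. The signals ran from 142 to 167 around a median of 149 in esophagus, from 354 to 415 around 383 in stomach, and from 447 to 504 around 474 in intestine. Before scaling the spots of the 3 organs did not overlap, but the arrays also differed in brightness. The share of all probes printed 10 times that did not overlap was not counted. After scaling the levels were −1.38 ± 0.075 in esophagus, 0.19 ± 0.075 in stomach and −1.11 ± 0.056 in intestine (SD over 9 spots each).

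Fgf10 was therefore 1.58 log2 units lower in esophagus than in stomach, a 2.99-fold difference that stood 136th from the bottom of 12923. Its difference for esophagus over intestine was −0.27 log2 units, smaller than the disagreement between probes of 1 gene for that comparison, and −1.20 with scaling to the spike-in controls. It was 2.47-fold higher in stomach than in intestine by the 75th percentile. With spike-in scaling that difference was 0.31 log2 units, so the margin of stomach over intestine depends on the scaling, while the difference for esophagus over stomach ran from −1.78 to −1.22 over all alternatives.

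Among 11 other genes of Fgf10 signalling, the median difference was −0.92 log2 units for esophagus over stomach, against −0.15 over all genes. Of the 11, 0 were at least 4-fold apart, where 2.26% of all genes were. At least 2-fold lower in esophagus than in stomach were 3 of the 11, where 4.14% of all genes were, a number that ran from 2 to 6 over the normalizations. These were Etv4 (−1.74), a transcription factor induced by FGF receptors, Il17rd (−1.19), a feedback inhibitor, and Fgf9 (−1.02), a ligand of lung mesothelium and epithelium. The 3 probes of Il17rd ran from −1.19 to −0.079, so its value depends on the probe, and Fgf9 was under 2-fold at −0.71 after normexp correction and −0.95 with spike-in scaling. Spry2, a feedback inhibitor in the lung bud, stood at −0.58, Spry1 at −0.92 and Dusp6, a phosphatase that dampens the response, at −0.96. In the other direction Fgf7, a relative of Fgf10 that was measured in esophagus alone, was at least 1.37 log2 units higher in esophagus than in stomach, a limit of 0.050 after normexp correction, and Etv5, a partner of Etv4 in the distal lung, stood at 0.51. For esophagus over intestine Fgf7 was higher by at least 2.14 log2 units and Etv4 was lower by 4-fold or more, at −2.01. After normexp correction those values were 1.30 and −1.48. The 2 probes of Etv5 ran from −0.25 to 1.85 in that comparison.

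The receptor of Fgf10, Fgfr2, was 0.98 log2 units higher in esophagus than in stomach, and its 3 probes ran from 0.98 to 1.08. For esophagus over intestine they ran from 0.12 to 1.89, so that comparison depends on the probe, and that of the brightest probe changed sign with median centring and spike-in scaling. The probes were not assigned here to the receptor form that binds Fgf10. The brightest probe of Fgfr1, another receptor of the family, differed by −0.10 log2 units for esophagus over stomach and by −0.16 for esophagus over intestine. The second value was −1.08 with spike-in scaling, close to the shift of all genes. The 3 probes of Fgfr1 ran from −0.10 to 0.36 for esophagus over stomach. For esophagus over intestine they ran from −0.16 to 1.75, so that comparison also depends on the probe.

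Transcription factors of trachea and lung mesenchyme, the tissue that makes Wnt2 and Fgf10, held 2 of 11 genes at least 4-fold higher in esophagus than in stomach, both of them T-box genes. Over all genes this share was 1.58%, and after normexp correction 1 of the 11 remained. Tbx4, which marks lung and tracheal mesenchyme, stood at −2.85 in esophagus and was not well above background in stomach or intestine, giving lower limits of 2.99 and 4.12 log2 units, the first of which was 0.85 after normexp correction. Tbx5, its partner upstream of Fgf10 and Wnt2 in the mouse lung and also a heart gene, stood at 2.40 in esophagus and −1.56 in stomach and was not well above background in intestine. Tbx2 and Tbx3 were within 2-fold between esophagus and stomach, at 0.41 and 0.19, the value of Tbx3 changing sign with median centring. Osr1, a regulator of foregut mesoderm, was 1.05 log2 units higher in esophagus than in stomach and 4.50 higher in esophagus than in intestine. Isl1, a gene of foregut and heart mesoderm, stood highest in stomach, at −1.77 for esophagus over stomach and 2.77 for stomach over intestine, the second being 1.77 with spike-in scaling. Foxf1 and Gli3, which respond to hedgehog signals from the endoderm, were within 2-fold between esophagus and stomach, at −0.39 and 0.25.

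Of 16 regulators of foregut and lung bud epithelium, 0 were at least 4-fold apart between esophagus and stomach, where 2.26% of all genes were. At least 4-fold higher in esophagus than in intestine were 2 of the 16, against 3.85% of all genes. Sox2, which marks the dorsal foregut and is held low where Nkx2-1 is on, stood at 1.04 in esophagus, 0.57 in stomach and −2.60 in intestine. Foxa2, the endoderm factor that acts with Nkx2-1 on lung genes, stood at 2.82 in esophagus, 2.46 in stomach and −0.21 in intestine. Sox9, a factor of distal lung tips and of cartilage, was 1.07 log2 units higher in esophagus than in stomach. Shh, the hedgehog ligand of foregut endoderm, differed by 0.52 for esophagus over stomach. Noggin (Nog), the BMP inhibitor of the dorsal side, differed by 0.01 log2 units for esophagus over stomach, a sign that flipped with other scalings, and Bmp4, the ligand of the ventral side, by 0.24.

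**Figure D3:**
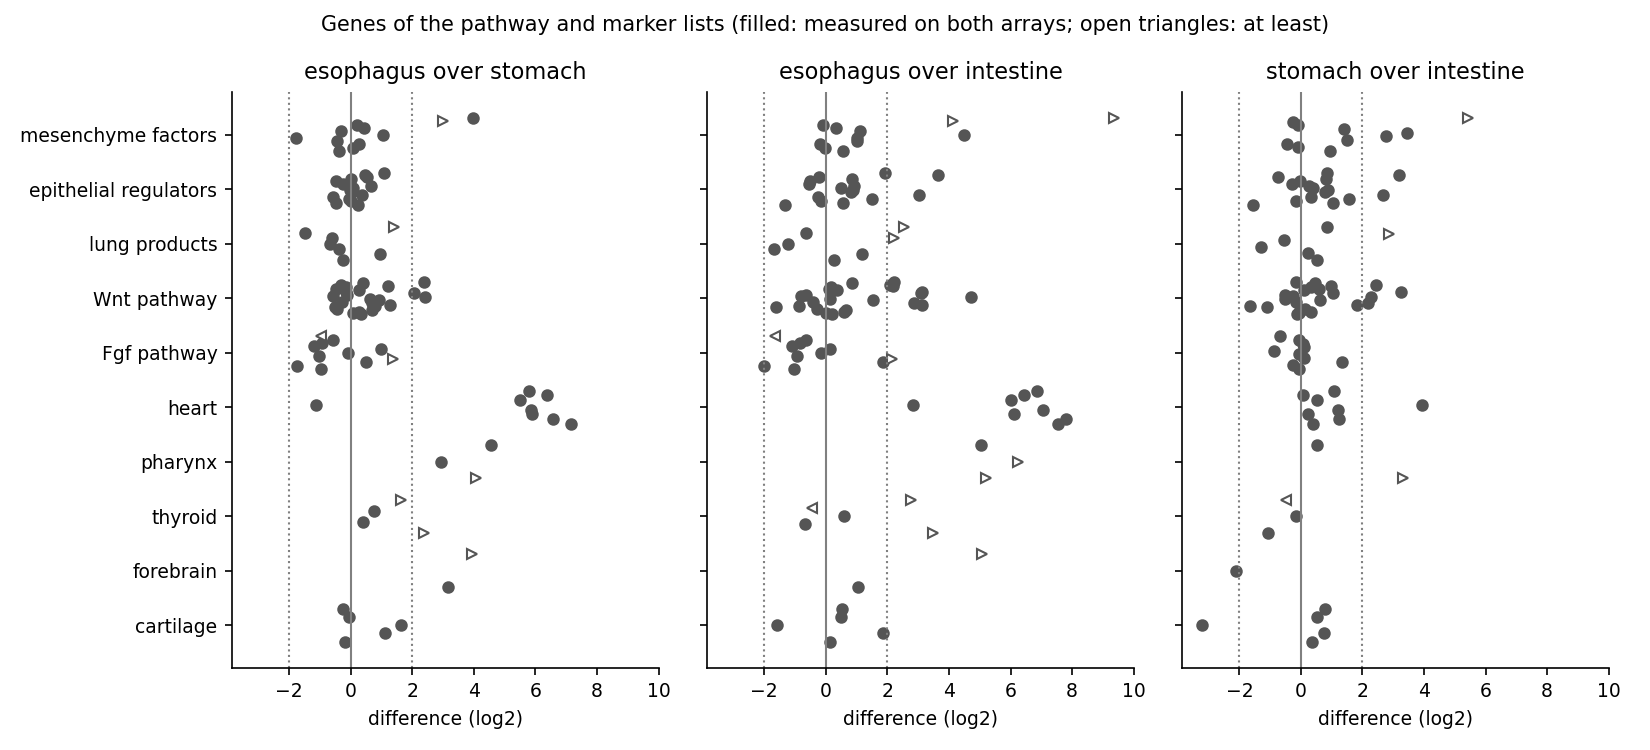
Difference of each gene (x axis, log2) of the pathway and marker lists, by list from top to bottom, for esophagus over stomach, esophagus over intestine and stomach over intestine. Filled circles were measured on both arrays, open triangles are limits, and dotted lines mark 4-fold. The Fgf pathway genes lie mostly below 0 in esophagus over stomach, and 7 of 8 heart genes lie beyond 4-fold on the right in both comparisons of esophagus.

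Most markers of tissues that adjoin the foregut were, like Nkx2-1, Sftpc and Wnt2, higher in esophagus. All 8 heart genes were measured on every array, and their signals summed to 108 times the 75th percentile in esophagus, 3.73 times in stomach and 1.04 times in intestine. At least 4-fold higher in esophagus than in stomach were 7 of the 8, against 1.58% of all genes. Among them was Tnnt2, the cardiac troponin T, at 5.80 log2 units. The eighth, Nkx2-5, an early transcription factor of the heart, went the other way, at −1.13 for esophagus over stomach. All 3 pharyngeal endoderm genes were at least 4-fold higher in esophagus than in stomach, of which only Tbx1, at 4.25, kept over 4-fold after normexp correction, against 1.46 for Pax9 and 1.34 for Pax1. The list had summed signals of 13.1 times the percentile in esophagus, 0.61 times in stomach and 0.38 times in intestine. Wnt2 and Tbx5 are also used in the inflow region of the embryonic heart, and the part of heart and pharynx in the values of the 6 genes was not tested.

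Markers of the other organs that use Nkx2-1 were mixed. Of 6 thyroid genes 4 were measured in esophagus, 2 in stomach and 3 in intestine, with summed signals of 0.72, 0.44 and 0.82 times the percentile. Pax8, which defines the thyroid primordium together with Nkx2-1, was not well above background in any organ. Foxe1, a factor of thyroid and pharynx, was measured in esophagus alone, at −3.08, and Tshr, the thyrotropin receptor, in esophagus alone at −4.22. Of 4 ventral forebrain genes reported here, Six3 and Six6 were not well above background in any organ. Lhx6 and Lhx8, which are also genes of the first pharyngeal arch, were measured in esophagus, at −0.86 and −1.91. Lhx6 stood at −4.03 in stomach and −1.92 in intestine, and Lhx8 was not well above background in either. No sum is given for the forebrain list, which is reported in part. Cartilage genes, which later mark tracheal rings, had 0 of 5 comparable members at least 4-fold apart between esophagus and stomach, where 2.26% of all genes were. Matn1 was not well above background in any organ.

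The genes with the most similar pattern were sought among 12863 others measured on all 3 arrays, by the distance between levels after each gene's own mean was removed. With 3 arrays such a likeness describes 3 numbers only. Closest to Wnt2 were Hspb2, a small heat shock protein gene of muscle, at a distance of 0.98 log2 units, Irx2, an Iroquois homeobox gene, at 1.08, and Apobec2, a gene of heart and skeletal muscle, at 1.095. Irx2 stood at 0.59 in esophagus, −2.30 in stomach and −4.47 in intestine. Closest to Wnt2b were Myh14, Zfr and Zcchc8, at distances of 0.0098, 0.015 and 0.023 log2 units. Closest to Fgf10 were Prkcq at 0.037, Itpka at 0.090 and Cdh4 at 0.106.

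**Figure D4:**
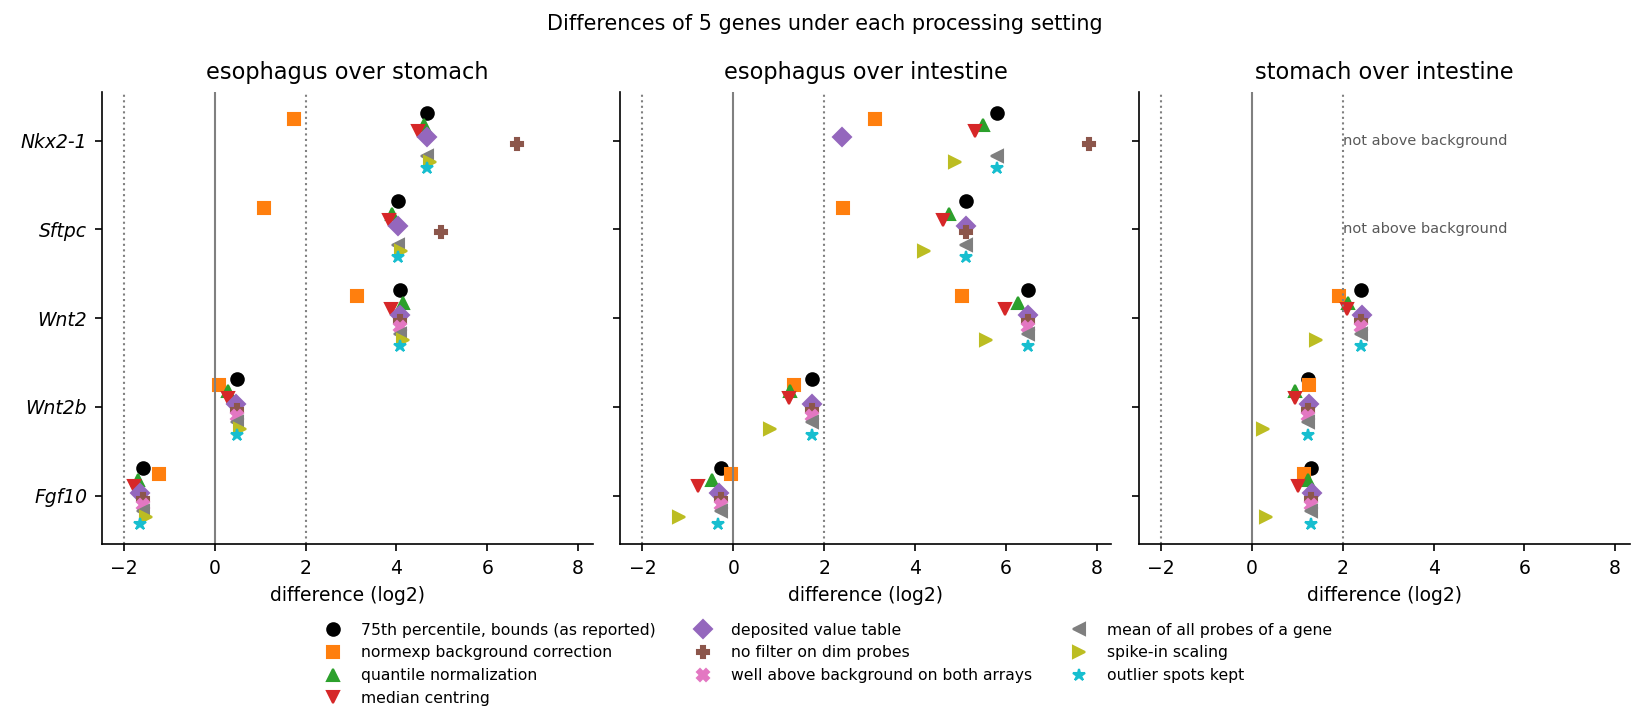
Difference (x axis, log2) of 5 genes for each pair of organs under each processing setting, 1 marker per setting, with Sftpb left out since it was not well above background. Black circles are the values reported and dotted lines mark 4-fold. Wnt2 keeps over 3 log2 units in both comparisons of esophagus, while the limits of Nkx2-1 and Sftpc are lower under normexp background correction, and that of Nkx2-1 over intestine is lowest in the deposited table.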

How the data were processed

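Per the file headers, the scanner files held spot intensity values that Agilent Feature Extraction 10.5.1.1 had written. Their processed signal is an intensity that the software corrected for background and for trends over the array, per the file headers, without scaling between arrays. A deposited table of log2 values, whose normalization the labels do not state, was log2 of the same signals minus the 75th percentile plus a constant: 99.8% to 99.9% of probes lay within 0.01 log2 units after 1 constant per array was removed, without centring of probes. Its medians were −2.97 in esophagus, −3.17 in stomach and −3.47 in intestine. All 3 arrays lay on 1 slide, so place on the slide and organ cannot be told apart. The extraction protocol in the labels names the stomach for every sample, and groups were taken from the organ labels.

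Outlier and control spots were left out, the log2 processed signal was scaled by subtraction of each array's 75th percentile and averaged over a probe's spots, and probes were named by matching accessions to RefSeq transcripts of GRCm38.p6 (24342 of 41112 probes). The probe with the highest mean stood for a gene. A gene entered a comparison when measured on at least 1 of the 2 arrays with a difference or bound above 1-fold. The steps were tested on simulated data. Genes named are the 6 members, their main receptors, targets and partners, up to 5 list members in each direction that were at least 4-fold apart, markers of the labelled organs and of adjoining tissues, and the 3 nearest in pattern to each member. Further genes of those lists were named after their values were seen. The members and the lists, 108 genes of which 106 had a probe, were chosen with earlier results of these data known. A further gene of the forebrain markers is not reported here. With 1 array per organ no test was run. Alternatives were normexp correction (limma 3.58.1, offset 50), quantile normalization, median centring, the deposited table, 2 other filters on dim probes, the mean of a gene's probes and a 2-fold threshold. Scaling to 8 spike-in probes and keeping outlier spots were added after seeing the data.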

Additional observations from a re-analysis of the deposited data

How the results depend on the processing

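No paired analysis was possible because each organ has 1 array. No difference of at least 2-fold among the 6 genes changed sign under any alternative. The unscaled signals were not among the alternatives. Between them Fgf10 and Wnt2b stood at −0.31 and −0.37 log2 units for stomach over intestine, the reverse of their levels. Among the list genes Foxj1 changed sign after normexp correction, at 0.029 in place of −1.67 for esophagus over intestine and 0.27 in place of −1.31 for stomach over intestine. Of the 6 genes, those at least 4-fold apart numbered 1 in place of 3 for esophagus over stomach after normexp correction, where Wnt2 remained, and 1 in place of 3 when signal above background was required on both arrays, which leaves out Nkx2-1 and Sftpc by construction. That requirement also gave 1 in place of 3 for esophagus over intestine. For stomach over intestine the number was 0 in place of 1 after normexp correction and 0 with spike-in scaling, and 3 with a 2-fold threshold. Wnt2 ranged from 3.13 to 4.16 log2 units for esophagus over stomach and from 5.05 to 6.49 for esophagus over intestine. The limit for Nkx2-1 ranged from 1.74 to 4.75 and from 2.39 to 5.81, and that for Sftpc from 1.08 to 4.11 and from 2.42 to 5.12. Without a filter on dim probes the differences, against spots not well above background, were 6.65 and 7.83 for Nkx2-1 and 4.99 and 5.12 for Sftpc. Of 113 alternative differences 86 moved by less than the disagreement between probes of 1 gene, but many of these could not move. Each member has 1 probe, so the 13 values from the mean of a gene's probes were unchanged by construction. So were the 9 values that required signal above background on both arrays. Normexp correction moved 9 differences by more than that disagreement and left 4, and spike-in scaling moved 8 and left 5.

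Over all genes, 217 were at least 4-fold higher and 94 lower for esophagus over stomach, 535 and 253 for esophagus over intestine, and 178 and 198 for stomach over intestine. After normexp correction these were 60 and 28, 214 and 93, and 62 and 51. Quantile normalization gave 369 and 370 for esophagus over intestine and 129 and 229 for stomach over intestine. Median centring gave 176 and 125, 296 and 455, and 115 and 255, and spike-in scaling 232 and 91, 198 and 1029, and 61 and 684. Without a filter on dim probes there were 350 and 184 for esophagus over stomach and 289 and 306 for stomach over intestine. Precision is limited by 1 array per organ and, for Sftpc, Sftpb, Wnt2 and Wnt2b, by 1 spot each. Signals near background, as for Sftpb in all organs and Nkx2-1 and Sftpc outside the esophagus, give limits only.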

Other observations

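The deposited table gave Nkx2-1 a value of −3.49 in intestine, against a level of −8.99 over the spots that were not outliers. The outlier spot of that probe alone stood at −3.54, and the table's constant on that array was 0.05. Of probes printed 10 times with only part of their spots well above background, the deposited value lay within 0.05 log2 units of the median of the spots well above background for 18 of 24 probes in esophagus, 17 of 28 in stomach and 14 of 19 in intestine. It lay as close to the median of all 10 spots for 2, 3 and 3 probes. The deposited intestine value of Nkx2-1 thus equals its outlier spot within that tolerance.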
